A study of Mus musculus with 24 samples.

Results

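The nuclear genes of oxidative phosphorylation were followed in cultured mouse organs of Corti (OCs). They were taken as every row of the counts table whose symbol begins with Nduf followed by a, b, c, s or v and a digit, is Sdha, Sdhb, Sdhc or Sdhd, or begins with Uqcr, with Cox4 to Cox8 or with Atp5. This rule found 85 of the 24454 rows, with 38 in complex I, 4 in complex II, 8 in complex III, 18 in complex IV and 17 in complex V. OCs came from C57BL/6N pups of both sexes at 5 days of age, were cultured for 24 h without drugs, and were then kept for 6 or 24 h in medium alone (CTRL) or in medium with gentamicin at 50 μM (GM), pioglitazone at 10 μM (PIO) or both together (PIO + GM). Gentamicin is an aminoglycoside toxic to hair cells, and pioglitazone activates PPAR-γ, a nuclear receptor that regulates lipid metabolism. Each of these 8 groups had 3 libraries, 24 in all, with 6 OCs pooled in each. All members but Ndufs5-ps, a transcribed pseudogene, are protein coding.

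Oxidative phosphorylation is the work of 5 complexes in the inner mitochondrial membrane. Complexes I and II pass electrons from NADH and succinate to ubiquinone, complex III passes them on to cytochrome c and complex IV to oxygen, and complex V uses the resulting proton gradient to make ATP. Most subunits are encoded in the nucleus and some have alternative forms made by paralogous genes, which are used in muscle, testis or low oxygen. Hair cells depend on this supply, and their mitochondria are a known site of aminoglycoside injury.

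The genes encoded by the mitochondrial genome have no rows in the table, with 0 of 13 found, so the levels below concern nuclear transcripts only. Totals ranged from 7211357 to 15548856 counts per library, and the members took between 0.443% and 0.62% of them. The highest share came from PIO at 6 h, replicate 2, while the other 11 libraries of 6 h lay between 0.479% and 0.548%. Summed over the 16 hair cell markers, the level was 610 to 1152 CPM (counts scaled to the TMM library size, where TMM is edgeR's normalization) at 6 h and 692 to 1296 at 24 h, and the 12 supporting cell markers reached 2133 to 6549 and 3301 to 5360, so transcripts of both were present in all libraries. In pooled explants, fewer cells of a type and less RNA per cell cannot be told apart. The labels place the explants in separate wells but do not tie libraries to animals or dissections, so p-values measure the spread between these libraries, and the time point and any dissection held at that time cannot be told apart.

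All 5 complexes were well expressed, and within complexes I, III, IV and V the levels of single subunits spread more widely than the medians of the complexes. Levels of different genes are compared as RPKM, which is CPM divided by the gene length in kilobases given in the table. Median RPKM over the members was 37.1 in complex I, 54.5 in complex II, 77.2 in complex III, 58.1 in complex IV and 80.7 in complex V, and 52.3 over all 85. Atp5b, the catalytic beta subunit of ATP synthase, had the highest mean level with 302 RPKM (214 to 385 over the 24 libraries). Atp5a1, its alpha partner, followed with 216 RPKM. In complex IV the highest was Cox4i1, the common form of subunit 4, with 199 RPKM, in complex I Ndufa4 with 167, in complex III Uqcrh, the hinge protein, with 166, and in complex II Sdha, the flavoprotein that oxidizes succinate, with 62.9. Ndufa4 is grouped here by its symbol, although its protein is now counted as a subunit of complex IV. The 4 subunits of complex II lay close together, down to 50.9 RPKM for the membrane anchor Sdhc.

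**Figure D1:**
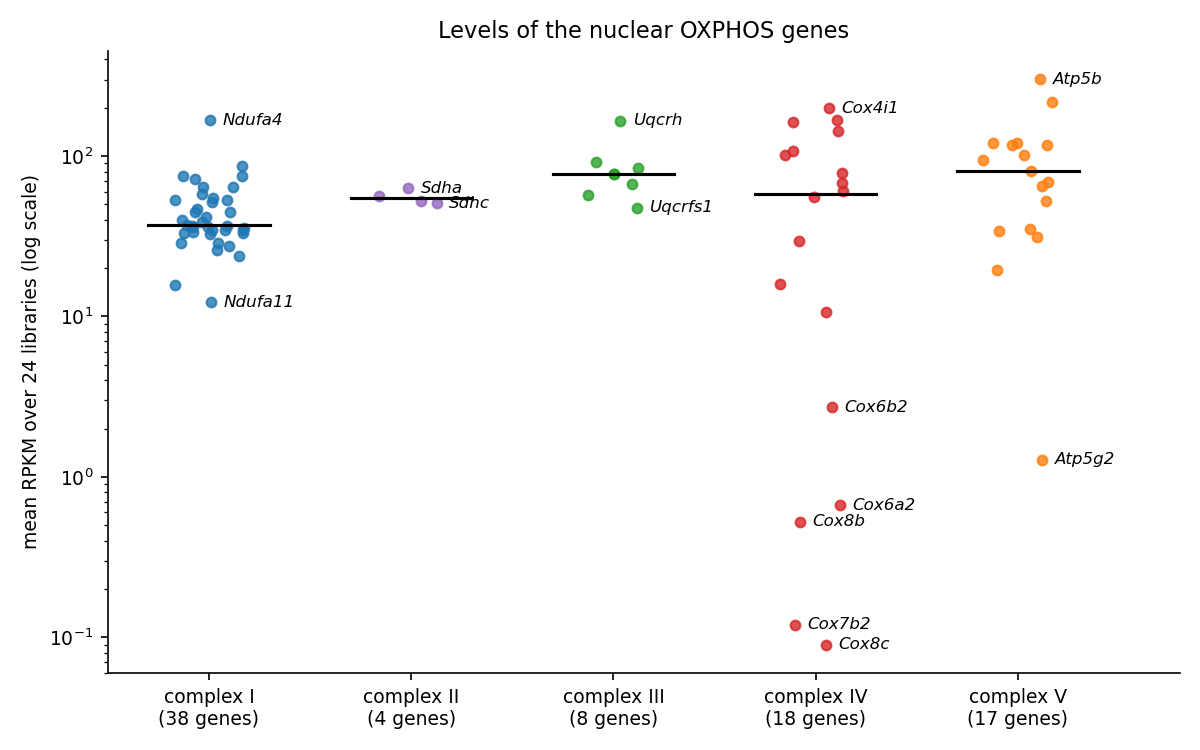
Mean RPKM of each of the 85 members over the 24 libraries on a log axis, by complex, with the median of each complex as a black line. The medians lie between 37.1 and 80.7 RPKM, and the genes under 3 RPKM are Cox6b2, Cox6a2, Cox8b, Cox7b2 and Cox8c in complex IV and Atp5g2 in complex V.

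At the low end were forms known from other tissues. Cox8b, a muscle form, had 0 to 15 counts per library, Cox7b2, a testis form, 0 to 3 and Cox8c, another testis form, 0 to 2. These 3 genes did not pass the filter on low counts, so 82 members were tested. Cox6a2, the heart and skeletal muscle form of subunit 6A, had 0 to 21 counts and 0.664 RPKM, against 107 RPKM for the common form Cox6a1. Atp5g2, 1 of 3 genes for the same mature c subunit of ATP synthase, had 4 to 19 counts and 1.28 RPKM, against 31.3 for Atp5g1 and 120 for Atp5g3. Reads of 76 bases cannot always be placed in this family, and 43.9% of such windows of the Atp5g2 transcript also occur in other genes' transcripts. For 19 of the 84 members with a matched transcript, over 20% of the windows were shared, with 75.7% for Atp5l as the highest, and their levels are uncertain. For 49 members none were.

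Of the 85 members, 68 had a promoter in the RefSeq table for build GRCm38.p6, from 250 bases before the transcription start to 50 after it. Promoters of respiratory genes are known for sites of the factors NRF1, GABP and YY1, so 3 motifs were searched on both strands. The NRF1 motif GCGCANGCG was found in 29.4% of the members' promoters and in 7.0% of those of all 27025 genes of the table. The GABP motif CCGGAAGT was found in 7.4% and 4.3%, and the YY1 motif AAGATGGCG in 10.3% and 1.6%. The YY1 letters contain an ATG, and in 6 of the 7 members that held them they lay after the transcription start. Matches of different motifs were allowed to overlap. At least 1 of the 3 was found in 42.6% of members and 11.9% of all genes, in 9 of 15 members of complex V but only 2 of 13 of complex IV. The following promoters show the arrangement in a member of complexes II, I and III, with the matches in capitals, namely 3 NRF1 matches in Sdha, an NRF1 and a YY1 match in Ndufs6 and a GABP and an NRF1 match in Uqcr11.
Sdha, chr13:74350191-74350490, minus strand: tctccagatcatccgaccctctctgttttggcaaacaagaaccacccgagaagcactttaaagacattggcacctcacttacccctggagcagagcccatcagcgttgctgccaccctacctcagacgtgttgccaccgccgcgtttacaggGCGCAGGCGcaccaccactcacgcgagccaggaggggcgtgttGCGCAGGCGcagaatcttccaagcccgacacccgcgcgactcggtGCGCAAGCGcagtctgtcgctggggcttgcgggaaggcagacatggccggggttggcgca
Ndufs6, chr13:73328433-73328732, minus strand: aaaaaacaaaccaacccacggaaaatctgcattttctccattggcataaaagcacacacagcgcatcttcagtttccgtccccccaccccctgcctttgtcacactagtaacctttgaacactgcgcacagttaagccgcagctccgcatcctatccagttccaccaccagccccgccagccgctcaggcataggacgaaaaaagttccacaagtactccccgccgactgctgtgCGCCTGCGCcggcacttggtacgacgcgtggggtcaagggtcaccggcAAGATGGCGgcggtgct
Uqcr11, chr10:80406772-80407071, minus strand: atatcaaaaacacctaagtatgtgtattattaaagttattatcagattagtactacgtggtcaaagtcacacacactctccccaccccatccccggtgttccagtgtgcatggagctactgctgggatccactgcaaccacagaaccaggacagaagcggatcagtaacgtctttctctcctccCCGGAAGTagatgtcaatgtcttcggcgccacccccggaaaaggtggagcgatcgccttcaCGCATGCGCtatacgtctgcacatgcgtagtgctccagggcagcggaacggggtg
These matches are letters in a window and were not tested as binding sites.

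Culture time was the comparison in which the members changed. By edgeR's quasi-likelihood test, with a threshold of 0.05 on the Benjamini-Hochberg adjusted p, 21 of the 82 tested members rose and 22 fell between 6 and 24 h in the mean of the 4 treatments, where 31.9% of all 16317 tested genes rose and 30.7% fell. Neither share of members was above this background. Changes were mostly small, since 65 of the members moved by less than 0.5 on the log2 scale (79.3%, against 61% of all tested genes), and the median member changed by -0.02 (all genes 0.02). The summed level of the 85 members was 4701 to 6274 CPM at 6 h, with a median of 5021, and 4505 to 5561 at 24 h, with a median of 4934, so the totals overlapped. The sum of complex V was 1857 to 2261 CPM at 6 h and 1544 to 1977 at 24 h, and that of complex I 1258 to 1816 and 1395 to 1723. By complex, 12 rose and 8 fell of 38 in complex I, 1 rose of 4 in complex II, 5 fell of 8 in complex III, 6 rose and 4 fell of 15 in complex IV, and 2 rose and 5 fell of 17 in complex V.

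**Figure D2:**
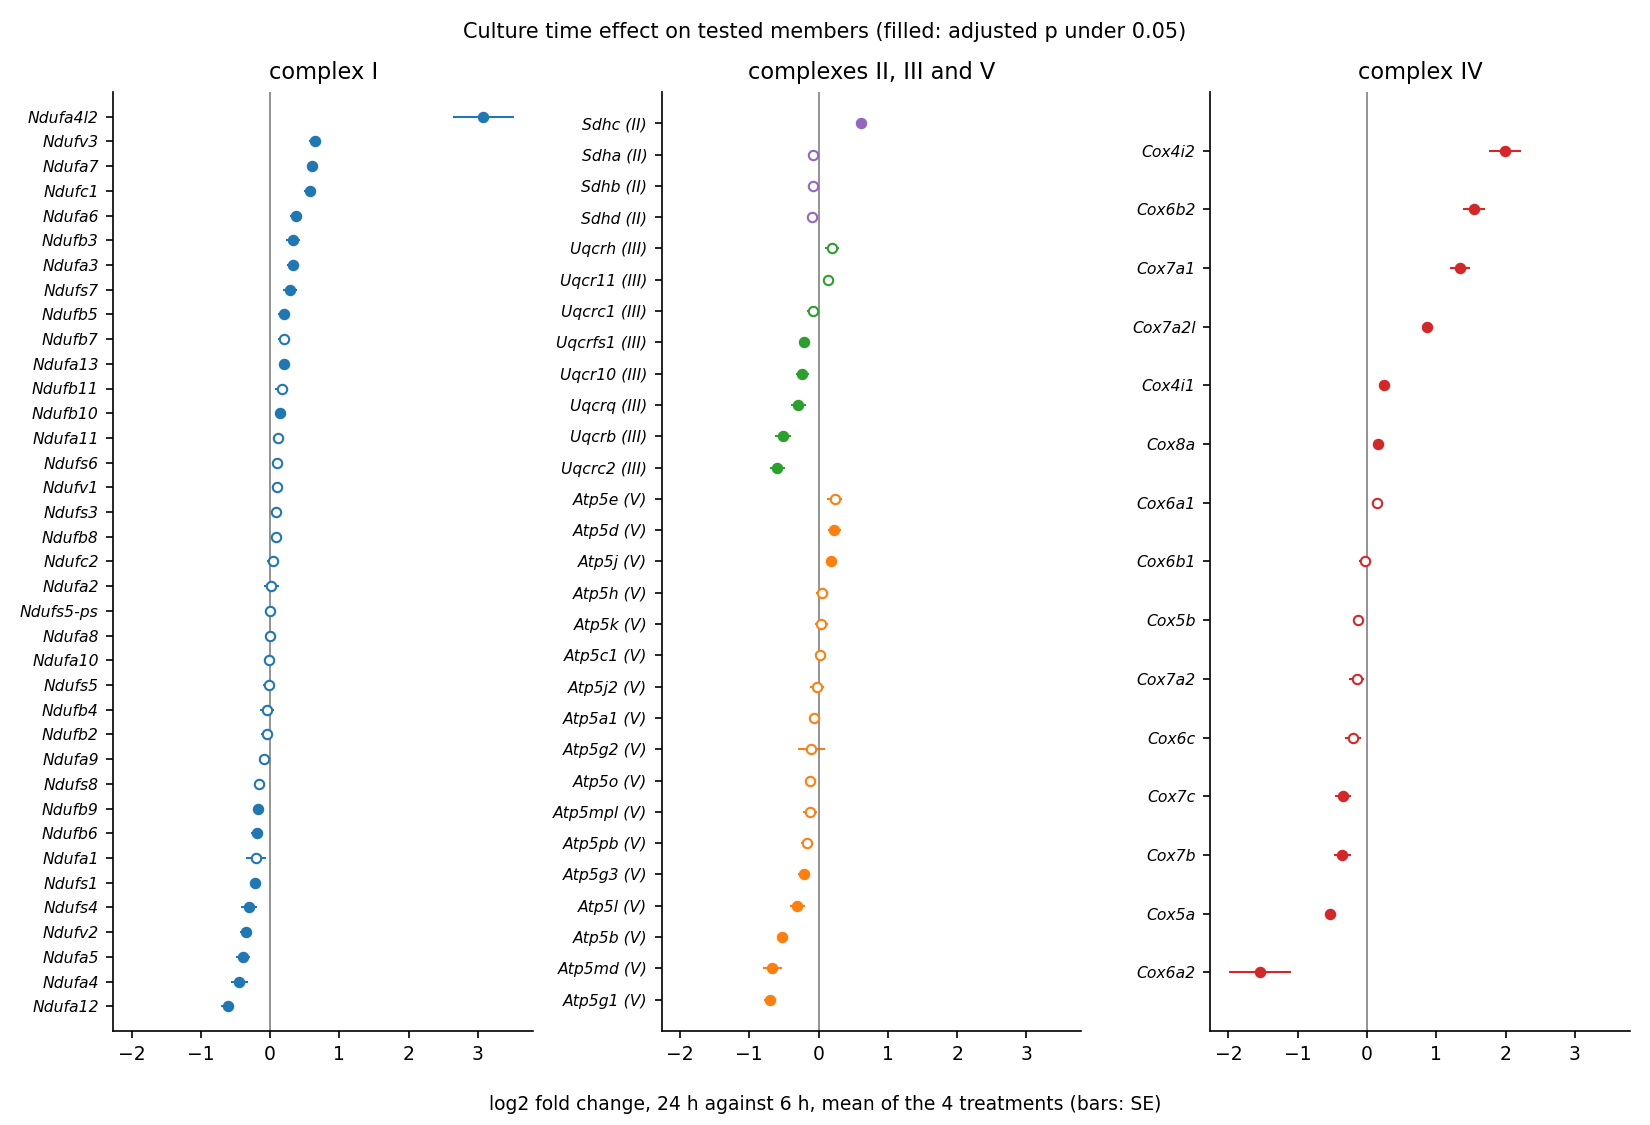
Log2 fold change of the tested members shown here from 6 to 24 h, averaged over the 4 treatments, with its SE as a bar and filled points for an adjusted p under 0.05. Ndufa4l2 (3.08), Cox4i2 (1.99), Cox6b2 (1.55) and Cox7a1 (1.34) stand far to the right, Cox6a2 (-1.55) to the left, and 65 of 82 members lie within 0.5 of 0.

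Within treatments, 9 members rose and 3 fell in CTRL (background 14.8% and 13.2% of tested genes), 10 rose and 4 fell in GM (12.5% and 11.7%), 11 rose and 7 fell in PIO (13.2% and 15.8%), and 12 rose and 10 fell in PIO + GM (17.6% and 17%). These 4 comparisons use separate libraries. Across them, 8 members rose in all 4 (Cox4i2, Cox6b2, Cox7a1, Cox7a2l, Ndufv3, Ndufa7, Ndufc1 and Sdhc) and 3 fell in all 4 (Atp5g1, Atp5b and Cox5a), where 6.97% of all tested genes rose and 7.24% fell in all 4. These counts depended on single libraries. In CTRL 4 rose and 2 fell without 6 h replicate 2. In GM 6 rose without 6 h replicate 2 or 24 h replicate 3. In PIO 7 rose and 12 fell without 6 h replicate 1, 15 fell without 6 h replicate 3, and 4 fell without 6 h replicate 2 or 24 h replicate 2. In PIO + GM 3 fell without 24 h replicate 2, 4 without 6 h replicate 3 and 6 without 6 h replicate 2. No member rose in 1 treatment and fell in another, and 0 of 82 passed the test for a different time effect under GM against CTRL, PIO against CTRL or PIO + GM against GM (background 0% in each). At an unadjusted p under 0.05 these tests gave 1, 0 and 2 members (0.766%, 4.38% and 4.06% of all tested genes), and DESeq2 called 0.

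Of the 6 members that rose most, Ndufa4l2, Cox4i2, Cox6b2 and Cox7a1 are paralogues known for use in particular tissues or in low oxygen, while Cox6a2, another such form, had the largest fall. Ndufa4l2 (chr10:127509274-127517154, GRCm38), a paralogue of Ndufa4 that is known to be induced by hypoxia and to restrain respiration, rose 8.43-fold (log2 3.08, SE 0.44, edgeR adjusted p = 6.49e-06). At 6 h its CPM was 21.6, 3.53 and 9.34 in CTRL, 21.3, 2.02 and 39 in GM, 2.89, 1.48 and 30.4 in PIO and 3.98, 1.76 and 6.88 in PIO + GM. At 24 h it was 82.4, 65 and 75.2 in CTRL, 133, 96 and 77.8 in GM, 66.3, 121 and 81.8 in PIO and 69, 119 and 69.5 in PIO + GM. Every library of 24 h was thus above every library of 6 h, and the 6 h libraries of a group differed severalfold among themselves. The share of all tested genes without overlap between the times is not given. Here and below, absence of overlap therefore only describes single genes. Ndufa4l2 passed the threshold in CTRL, PIO and PIO + GM but not in GM (log2 2.29, SE 0.84, edgeR adjusted p = 0.0516). The call was lost on leaving out 4 of the 6 libraries in turn in CTRL and 3 of 6 in PIO, and 0 of 6 in PIO + GM.

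Cox4i2, the alternative form of subunit 4 of complex IV whose use is linked to oxygen supply, rose 3.97-fold (log2 1.99, SE 0.23, edgeR adjusted p = 5.15e-07). Its CPM at 6 h was 5.38, 1.85 and 6.06 in CTRL, 4.62, 1.43 and 3.4 in GM, 3.07, 1.16 and 4.05 in PIO and 2.12, 1.92 and 3.1 in PIO + GM. At 24 h it was 17.5, 8.32 and 15 in CTRL, 18.1, 9.65 and 11.9 in GM, 10.3, 12.1 and 14.1 in PIO and 7.08, 11 and 13.8 in PIO + GM. The 6 h and 24 h libraries did not overlap. The common form Cox4i1 changed much less, from 105 to 155 CPM at 6 h to 144 to 193 at 24 h (log2 0.25, SE 0.05, edgeR adjusted p = 0.000354), and its change was 0.01 once the trend of each library with GC content was taken out. Per kilobase, Cox4i2 made up 0.835% to 3.95% of both forms at 6 h and 4.21% to 11.6% at 24 h.

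Cox7a1, the heart and muscle form of subunit 7A, rose 2.53-fold, from 2.19 to 4.23 CPM (median 3.32) over the 12 libraries of 6 h to 5.28 to 11.4 (median 8.28) at 24 h (log2 1.34, SE 0.14, edgeR adjusted p = 1.93e-07). Cox7a2l, a relative of subunit 7A that joins complexes III and IV into supercomplexes, rose 1.83-fold, from 42.1 to 74.5 CPM (median 52.3) to 84.3 to 123 (median 96.1) (log2 0.87, SE 0.07, edgeR adjusted p = 8.73e-09). Neither overlapped between the times. The common form Cox7a2 was at 49.7 to 104 CPM at 6 h and 47.2 to 66.5 at 24 h and did not pass the test (log2 -0.15, SE 0.11, edgeR adjusted p = 0.245). Among these 3 genes and per kilobase, Cox7a1 went from a median share of 6.46% to 11.8% and Cox7a2l from 33.7% to 46.9%. Cox6b2, known as the testis form of subunit 6B, rose 2.92-fold at a low level, from 0.42 to 1.59 CPM to 1.85 to 3.48 (log2 1.55, SE 0.16, edgeR adjusted p = 1.07e-07), again without overlap. Its common partner Cox6b1 had 61.8 to 106 and 64 to 80.4 CPM (log2 -0.03, SE 0.08, edgeR adjusted p = 0.78). The promoters of Cox7a1, Cox7a2l and Cox6b2 are shown because these genes rose together, and none held any of the 3 motifs.
Cox7a1, chr7:30183921-30184220, plus strand: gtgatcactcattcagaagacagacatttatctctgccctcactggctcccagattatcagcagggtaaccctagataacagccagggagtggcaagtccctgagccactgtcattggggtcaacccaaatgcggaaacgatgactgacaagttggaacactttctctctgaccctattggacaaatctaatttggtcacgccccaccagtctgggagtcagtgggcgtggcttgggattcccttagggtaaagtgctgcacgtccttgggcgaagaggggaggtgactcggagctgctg
Cox7a2l, chr17:83514284-83514583, minus strand: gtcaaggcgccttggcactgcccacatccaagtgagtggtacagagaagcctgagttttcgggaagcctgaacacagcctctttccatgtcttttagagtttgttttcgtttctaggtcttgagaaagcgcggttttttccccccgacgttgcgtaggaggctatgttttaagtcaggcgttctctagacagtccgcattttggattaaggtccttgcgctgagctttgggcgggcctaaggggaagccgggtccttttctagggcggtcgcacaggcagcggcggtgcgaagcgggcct
Cox6b2, chr7:4753045-4753344, minus strand: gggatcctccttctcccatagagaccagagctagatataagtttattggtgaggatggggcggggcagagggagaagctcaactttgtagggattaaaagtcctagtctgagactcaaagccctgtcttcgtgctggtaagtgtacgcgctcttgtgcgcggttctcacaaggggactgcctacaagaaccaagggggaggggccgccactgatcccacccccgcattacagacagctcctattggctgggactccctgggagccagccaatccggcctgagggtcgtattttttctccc
Promoters of Ndufa4l2 and Cox4i2 were not analysed here. Of the members with a promoter, a motif was found in 6 of 16 that rose, 4 of 16 that fell and 19 of 34 that were not called.

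**Figure D3:**
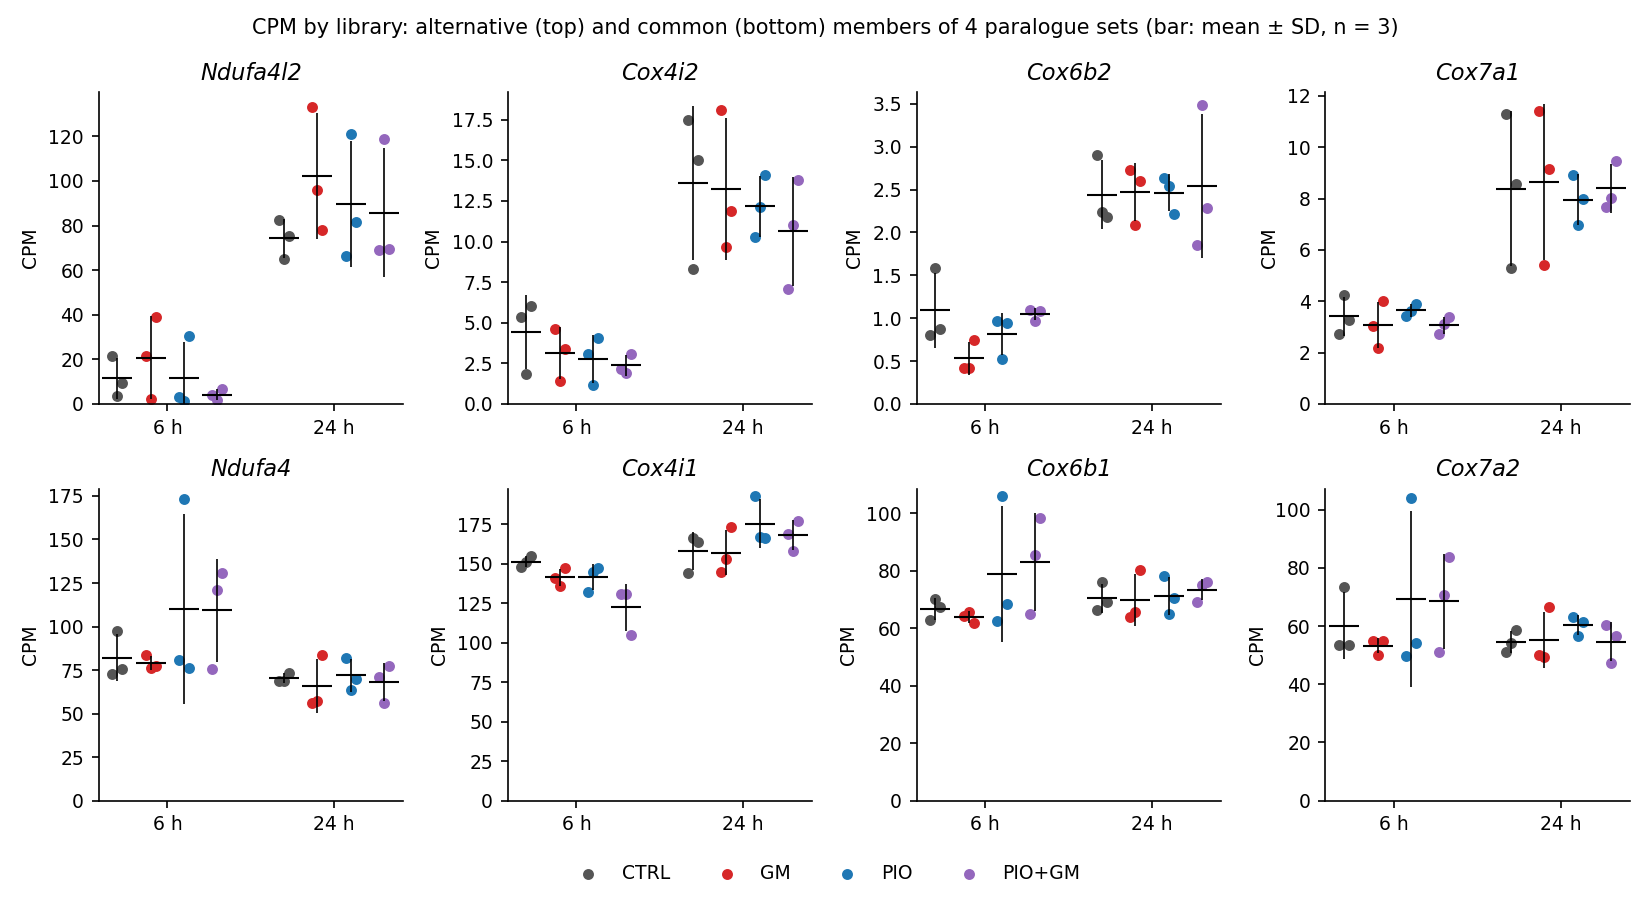
CPM of each library by time and treatment for 4 paralogues that rose (top) and their common partners (bottom), with the mean and SD of each group of 3. Ndufa4l2, Cox4i2, Cox6b2 and Cox7a1 have no overlap between 6 and 24 h, whereas Ndufa4, Cox4i1, Cox6b1 and Cox7a2 overlap.

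Other risers were accessory subunits of complex I and an anchor of complex II. Ndufv3, which sits beside the NADH-binding part of complex I, rose from 31.8 to 54.6 CPM to 56.8 to 74 (log2 0.65, SE 0.09, edgeR adjusted p = 2.67e-06). Sdhc, which anchors complex II in the membrane, rose from 41.3 to 53.9 CPM to 64 to 83.8 (log2 0.61, SE 0.06, edgeR adjusted p = 2.75e-08), while Sdha, Sdhb and Sdhd changed by -0.08, -0.08 and -0.09 and did not pass. With the GC trend taken out, Sdhb was called lower (log2 -0.24, edgeR adjusted p = 0.0311), and Sdha and Sdhd again did not pass. Ndufa7 rose from 28.8 to 37.5 CPM to 40 to 59.8 (log2 0.61, SE 0.07) and Ndufc1 from 7.83 to 12.7 to 13.6 to 20.1 (log2 0.58, SE 0.09). None of these 4 overlapped between the times. The 15 members that rose beyond the 6 with the largest changes had log2 changes between 0.14 and 0.61. They included Ndufa3, Ndufa6, Ndufa7, Ndufa13, Ndufb3, Ndufb5, Ndufb10, Ndufc1 and Ndufs7 of complex I, of complex II Sdhc, of complex IV Cox4i1 and Cox8a (0.15, but -0.11 with the GC trend taken out), and of complex V Atp5d and Atp5j. With that trend taken out, Ndufa13, Atp5d, Ndufb10 and Atp5j were at -0.12, -0.05, -0.02 and 0.00. Neither these nor Ndufa3 (0.14) and Ndufa6 (0.25) were then called. Calls remained for Ndufa7, Ndufb3, Ndufb5, Ndufc1 and Sdhc.

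Members that fell included catalytic and membrane parts of ATP synthase. Atp5b, the most abundant member, fell from 545 to 724 CPM (median 680) to 402 to 543 (median 474), without overlap (log2 -0.52, SE 0.06, edgeR adjusted p = 1.46e-07). Atp5a1, the other main part of the catalytic head, was at 460 to 567 and 471 to 574 CPM and did not pass (log2 -0.06, SE 0.05, edgeR adjusted p = 0.261). Atp5g1, a gene of the rotating c ring, fell from 25.6 to 37.1 CPM to 16.4 to 25.4 (log2 -0.71, SE 0.08, edgeR adjusted p = 4.11e-07), again without overlap. Of its windows, 50.2% are shared, and Atp5g3, with 0% shared, fell by less (log2 -0.22, SE 0.08, edgeR adjusted p = 0.0208). Atp5md, which helps ATP synthase to form dimers, fell from 5.72 to 15.1 CPM to 4.12 to 6.33 (log2 -0.67, SE 0.14, edgeR adjusted p = 0.000412), with overlap and with 35.7% of windows shared.

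In complex III, Uqcrc2, a core subunit, fell from 129 to 265 CPM to 89.8 to 153 (log2 -0.59, SE 0.11, edgeR adjusted p = 0.000122), with overlap. Its partner Uqcrc1 did not pass (log2 -0.08, SE 0.09), but was called lower with the GC trend taken out (log2 -0.28, edgeR adjusted p = 2.57e-05). The Rieske protein Uqcrfs1, which carries electrons to cytochrome c1, fell by 0.21 on the log2 scale (SE 0.05). In complex IV, Cox5a, a structural subunit, fell from 32.9 to 50.3 CPM to 26.1 to 34.6 (log2 -0.53, SE 0.06, edgeR adjusted p = 6.34e-07). The times overlapped through 1 low library at 6 h, PIO + GM replicate 3 with 32.9 CPM, the smallest of all in counts. Ndufa12, an accessory subunit of complex I, fell from 19.7 to 41.6 CPM to 11.9 to 19.5 (log2 -0.61, SE 0.10, edgeR adjusted p = 2.52e-05), with 46.0% of windows shared. Cox6a2 had the largest fold of those that fell (log2 -1.55, SE 0.44, edgeR adjusted p = 0.00502), but on 0 to 21 counts per library. The 16 further members that fell changed by -0.52 to -0.18. Of complex I they held Ndufa4, Ndufa5, Ndufb6, Ndufb9, Ndufs1, Ndufs4 and Ndufv2, of complex III Uqcr10, Uqcrb, Uqcrfs1 and Uqcrq, of complex IV Cox7b and Cox7c, and of complex V Atp5b, Atp5g3 and Atp5l. Within single treatments, Uqcrc2, Uqcrb, Ndufa12 and Atp5md were called only in PIO and PIO + GM. Likewise, Ndufa4 and Ndufa5 were called only in PIO + GM, and no member of complex III was called in CTRL or GM. Ndufa4, the common partner of Ndufa4l2, was at 73 to 173 CPM at 6 h and 56 to 83.7 at 24 h (log2 -0.44, SE 0.13, edgeR adjusted p = 0.00519). Ndufa4l2 was 0.436% to 20.5% of this pair per kilobase at 6 h and 29.2% to 54.7% at 24 h.

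Core subunits of complex I carry its redox centres. In the mean of the treatments, Ndufs1, the largest of them, fell by 0.22 on the log2 scale (SE 0.07, edgeR adjusted p = 0.0121). Ndufv2 fell by 0.34 (SE 0.09, edgeR adjusted p = 0.00184), and both were called under all 33 settings. Within single treatments Ndufs1 was never called, and Ndufv2 only in PIO + GM. In CTRL, Ndufs1 was at 92.6 to 105 CPM at 6 h and 92.2 to 97.6 at 24 h, and Ndufv2 at 59 to 60.2 and 53.5 to 55.8. The highest 6 h values of Ndufs1 were 138 CPM in PIO replicate 2 and 133 in PIO + GM replicate 3. No setting left out both of these libraries. Ndufs7 rose by 0.29 (SE 0.11, edgeR adjusted p = 0.025), but by 0.02 with the GC trend taken out (edgeR adjusted p = 0.851), where it was no longer called. Ndufv1, which binds NADH, did not pass (log2 0.09, SE 0.07, edgeR adjusted p = 0.274). In all, 39 members did not pass the test, and their changes lay between -0.20 and 0.23.

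Other measures moved with time beside these genes. Among all tested genes with a matched transcript, the mean time effect rose slightly with GC content (Spearman's rho 0.22 over 15389 genes), and over 81 members it did so more strongly (rho 0.58), a description over genes that share the same libraries. By treatment, rho over all genes was 0.04 in CTRL, 0.07 in GM, 0.32 in PIO and 0.36 in PIO + GM. Over the members it was 0.40, 0.40, 0.66 and 0.64 in the same order. With the GC trend taken out of every library, 12 members were higher and 26 lower in place of 21 and 22, beside 31.6% and 34.4% of all tested genes. Within treatments the counts were then 9 and 5 in CTRL (17.1% and 19.1% of all tested genes), 10 and 7 in GM (15.2% and 17.1%), 8 and 9 in PIO (14.3% and 17.7%) and 8 and 13 in PIO + GM (16.4% and 18.8%). Of the 43 called members, 32 were called again with the trend removed, and 25 were called under all 33 settings tried, 10 higher and 15 lower. How many of all tested genes stayed called in this way was not counted, so these numbers have no background. Those that were higher included Cox4i2, Cox7a1, Cox7a2l, Ndufa4l2, Ndufa7, Ndufb3, Ndufc1, Ndufv3 and Sdhc.

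**Figure D4:**
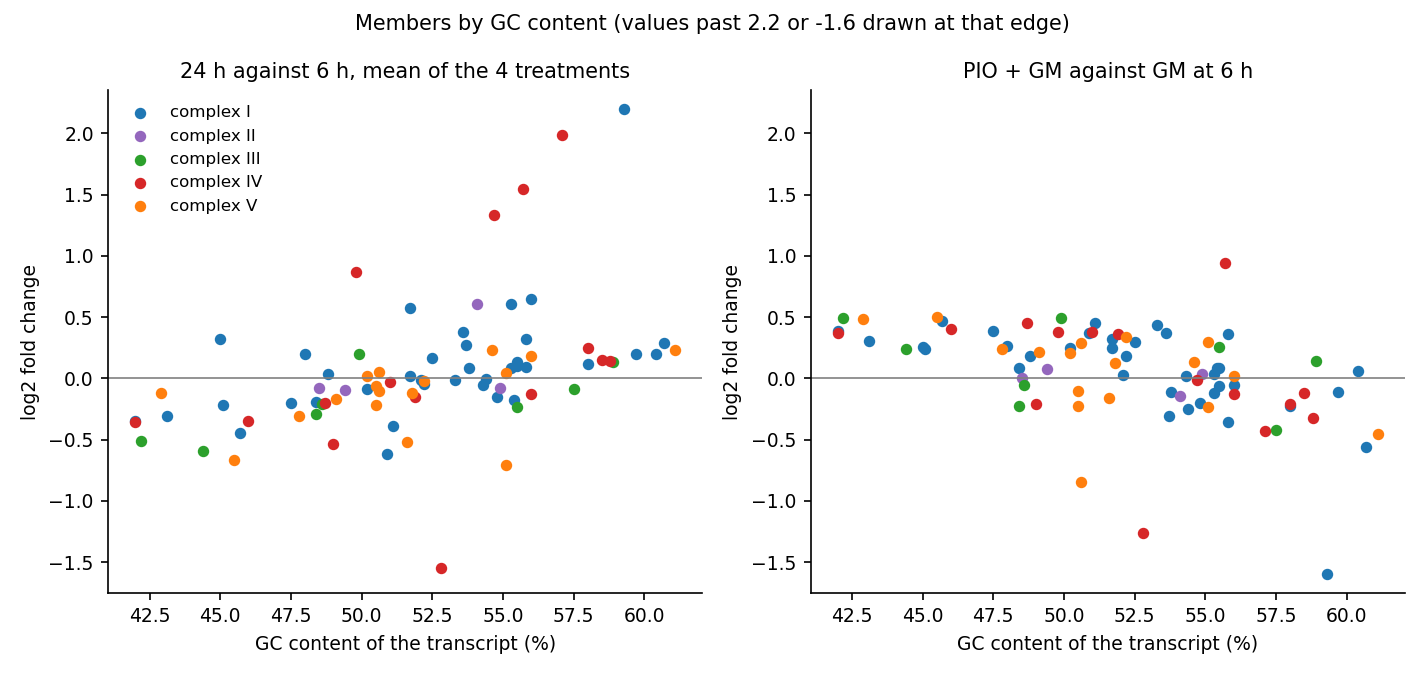
Log2 fold change of the members against the GC content of their transcripts, for 24 h against 6 h (left) and for PIO + GM against GM at 6 h (right), coloured by complex. Members of high GC content tend to higher values on the left (rho 0.58, n = 81) and to lower values on the right (rho -0.55, n = 81).

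Markers of other cell types also changed with time, and their counts are to be read beside the 31.9% of all tested genes that rose and the 30.7% that fell. Of 8 Schwann cell markers 6 fell (summed level 385 to 2832 CPM at 6 h and 353 to 925 at 24 h), of 8 neuron markers 6 fell and 1 rose (119 to 476 and 203 to 371), of 5 erythroid genes 5 fell (178 to 653 and 77.5 to 241), and of 10 macrophage markers 7 rose (55.1 to 139 and 74.7 to 234). Of 6 fibroblast markers 2 rose and 1 fell, with summed levels of 2687 to 5234 and 3057 to 6649 CPM. Of the 16 hair cell markers 5 rose and 3 fell, and of 12 supporting cell markers 6 rose. For Cox6a2 and Cox8b, the 12 muscle markers summed to 25.8 to 60.3 CPM at 6 h and 10.5 to 24.1 at 24 h, with 3 of 9 tested higher and 4 lower. Des made up most of this sum, with medians of 33 and 11.8 CPM, and the other 11 genes had medians of at most 1.21 CPM at 6 h and 1.61 at 24 h. For Cox7a1, the 8 brown adipocyte markers, which include it and Cox8b, summed to 15.4 to 44.4 and 19.2 to 29.6 CPM, with 1 of 4 tested higher (Cox7a1) and 2 lower. Ppargc1a had medians of 22.1 and 12.8 CPM, and the 6 genes other than it and Cox7a1 had medians of at most 0.862 and 1.28 CPM. Ndufa4l2 and Cox4i2 are also known from pericytes, and in a list of 10 pericyte genes written after these results were seen 8 were higher and 1 lower at 24 h, Rgs5 being the one that fell (summed level 379 to 870 and 456 to 844 CPM). In a list of 12 hypoxia response genes, also written afterwards, 5 were higher and 1 lower, with Car9 at log2 2.00 (SE 0.33) and Slc2a1 at -0.59 (SE 0.23). The part of any of these in the changes of the members was not tested.

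Many genes that build and feed the complexes were lower at 24 h. Over the lists of assembly factors, electron carriers, regulators, TCA cycle enzymes and genes of fuel choice, 16 of 91 tested genes rose and 42 fell between 6 and 24 h, where 31.9% and 30.7% of all tested genes did. Of 14 regulators 10 fell and 1 rose. Pprc1, a coactivator related to PGC-1α, fell by 1.39 on the log2 scale (SE 0.14), Ppargc1a, which encodes PGC-1α, by 0.82 (SE 0.13), and Tfam, which packages and transcribes mitochondrial DNA, by 0.47 (SE 0.08), and Ppara was the one that rose (log2 0.33, SE 0.08). Cycs, which encodes the cytochrome c that carries electrons from complex III to IV, fell by 1.33 (SE 0.12), and Cyc1, the cytochrome c1 of complex III, by 0.40 (SE 0.08).

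In the TCA cycle 8 of 13 enzymes fell and 3 rose, led by Idh3a, the catalytic subunit of isocitrate dehydrogenase, which fell by 1.18 on the log2 scale (SE 0.07). Its partners Idh3g and Idh3b had log2 changes of 0.24 (SE 0.05, edgeR adjusted p = 0.000306) and 0.11 (SE 0.05, edgeR adjusted p = 0.0503). Of the assembly factors, 2 of 15 rose and 7 fell for complex I, 1 of 4 and 2 for complex II, 1 of 6 and 2 for complex III, 4 of 22 and 7 for complex IV, and 0 of 3 and 1 for complex V. Nubpl, which delivers iron-sulfur clusters to complex I, rose from a median of 3.3 CPM to 8.71 (edgeR adjusted p = 1.2e-08), while Ndufaf4, another complex I assembly factor, fell by 1.23 (SE 0.12) and Sco2, which carries copper to complex IV, by 1.34 (SE 0.14). Among 11 genes of uncoupling and fuel choice 4 rose and 3 fell. Pdk1 and Pdk2, kinases that shut off pyruvate entry into the cycle, rose by 0.96 (SE 0.18) and 0.93 (SE 0.12), and Slc25a5, an ADP/ATP carrier, fell by 1.08 (SE 0.07), while its muscle-rich relative Slc25a4 changed by 0.00 (SE 0.06).

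For the drugs, the questions were the damage by gentamicin and the response to pioglitazone. In edgeR's test on all libraries 0 of 82 members passed in any of the 8 comparisons, where the share of all tested genes that passed was 0% for GM against CTRL, 0.337% for PIO against CTRL, 1.32% for PIO + GM against GM and 0% for PIO + GM against PIO at 6 h, and 0.0123%, 0.153%, 0.11% and 0.0735% at 24 h. At shares of this size few or none of 82 genes would pass. At an unadjusted p under 0.05, the members numbered 1, 4, 18 and 2 at 6 h and 0, 2, 2 and 0 at 24 h in the same order. Of all tested genes this was 1.49%, 15.2%, 25% and 3.06% at 6 h and 1.67%, 9.93%, 7.47% and 2.59% at 24 h. DESeq2's Wald test also called 0 members in each. The SE of a member's log2 fold change had a median of 0.17. Comparisons with the same control share its 3 libraries and are given side by side.

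For GM against CTRL the median log2 fold change of the members was 0.00 at both times, and their 10th and 90th percentiles were -0.15 and 0.10 at 6 h and -0.09 and 0.10 at 24 h. On leaving out a library the median ranged from -0.03 to 0.04 at 6 h and from -0.11 to 0.06 at 24 h. The lowest p was that of Cox6b2 at 6 h, with 0.804, 1.59 and 0.878 CPM in CTRL and 0.42, 0.421 and 0.748 in GM (1.99-fold lower, SE 0.35 on the log2 scale, edgeR adjusted p = 1), and that of Ndufa7 at 24 h (log2 0.20, SE 0.13, edgeR adjusted p = 1). The groups did not overlap for Cox6b2 at 6 h, on 5 to 18 counts per library.

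With pioglitazone most members had positive fold changes, none past the threshold. Against CTRL at 6 h 70 of 82 had a positive log2 fold change (85.4%, against 50.3% of all tested genes) with a median of 0.15, by complex 0.21 in I, 0.12 in II, 0.20 in III, 0.10 in IV and 0.15 in V. Without PIO at 6 h, replicate 2, the library with the largest share of members, the median was 0.04, and without PIO at 6 h, replicate 1, it was 0.25. These 6 h log2 fold changes fell with GC content (Spearman's rho -0.38 over 15389 genes and -0.53 over 81 members). With the GC trend taken out of every library, 75 of 82 members were positive (8213 of 16317 tested genes) with a median of 0.21, and 0 were called. The part of GC content was not tested. At 24 h 63 of 82 were positive (76.8%, against 48.6% of all tested genes) with a median of 0.07, which was 0.01 without CTRL at 24 h, replicate 1, 0.02 without PIO at 24 h, replicate 1, and 0.11 without CTRL at 24 h, replicate 3, or PIO at 24 h, replicate 2. The lowest p at 6 h was that of Ndufc2, an accessory subunit of complex I, with 26.4, 32.8 and 34.8 CPM in CTRL and 34.3, 50 and 38.9 in PIO (log2 0.39, SE 0.17, edgeR adjusted p = 0.278), where the groups overlapped. At 24 h it was that of Cox7a2l, with 91.6, 89.2 and 87 CPM in CTRL and 115, 117 and 102 in PIO (log2 0.32, SE 0.15, edgeR adjusted p = 0.474), without overlap.

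Under gentamicin, pioglitazone gave a median of 0.10 at 6 h and 0.00 at 24 h, with 52 and 42 of 82 members positive (63.4% and 51.2%, against 48.5% and 50.1% of all tested genes). At 6 h 11 members were higher and 7 lower at an unadjusted p under 0.05, beside 25% of all tested genes in either direction. The 6 h median ranged from 0.04 to 0.21 on leaving out a library, and the 24 h median from -0.05 to 0.14. Ndufa4l2, whose libraries are given above, had the most negative value (log2 -2.37, SE 0.93, edgeR adjusted p = 0.134), with 1 of 3 GM libraries below 2 of the PIO + GM libraries. Without PIO + GM replicate 1, 10 members were called higher and 6 lower in place of 0, beside 12% and 12.3% of all tested genes in that fit. The 6 lower ones, with Ndufs7, Atp5d, Uqcrc1, Ndufv1 and Cox6a1 among them, had a transcript GC content of 53.7% to 61.1%, and the 10 higher ones one of 42.0% to 55.8%, so that the ranges overlapped. Log2 fold changes in this comparison fell with GC content over all genes (Spearman's rho -0.63, n = 15389) and over the members (rho -0.55, n = 81), and the part of GC content in them was not tested. With the GC trend taken out of every library, 65 of 82 members were positive with a median of 0.22, and 13 were higher and 2 lower at an unadjusted p under 0.05, beside 15.8% of all tested genes, with 0 past the threshold. At 24 h Cox7a2l had the lowest p, as without gentamicin, with 90.1, 90.9 and 84.3 CPM in GM and 101, 115 and 123 in PIO + GM (log2 0.35, SE 0.15, edgeR adjusted p = 0.551), without overlap.

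**Figure D5:**
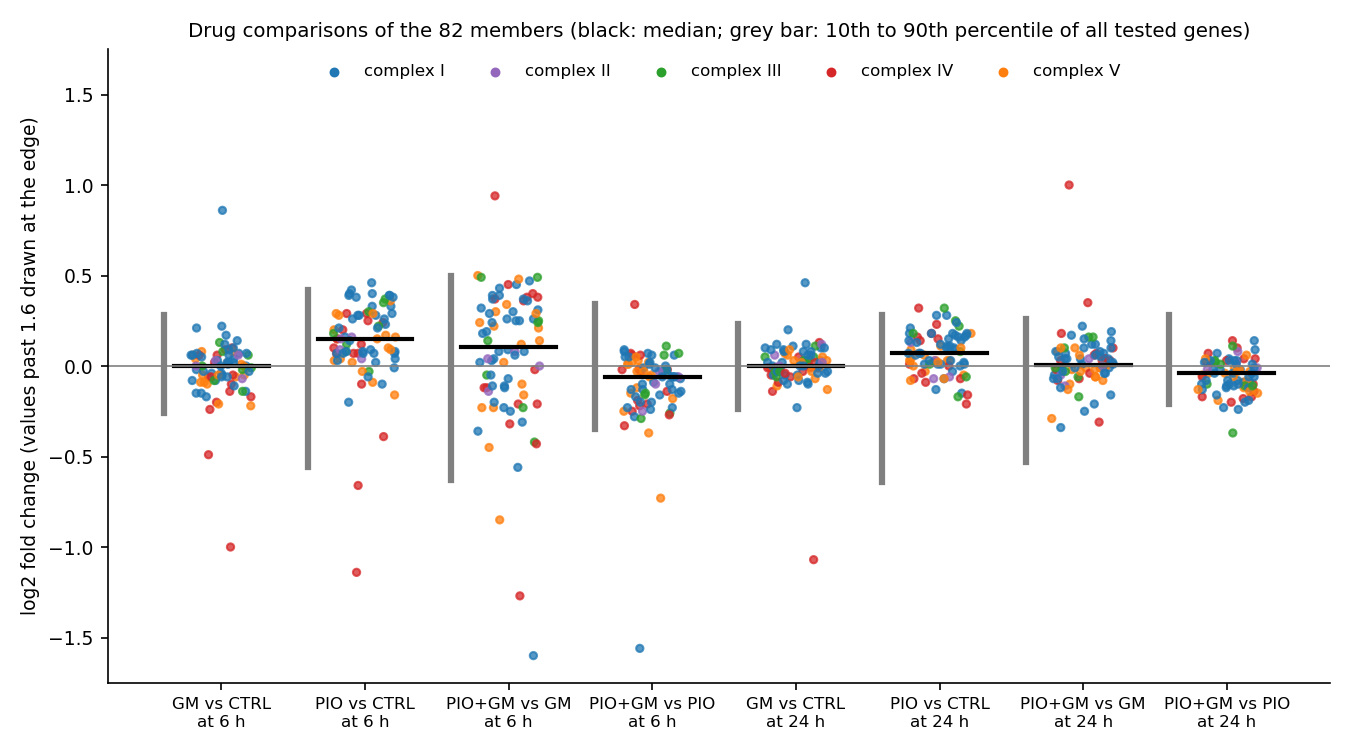
Log2 fold changes of the 82 tested members in the 8 drug comparisons, coloured by complex, with the median of the members in black and the 10th to 90th percentile of all tested genes as a grey bar. The medians are 0.15 and 0.10 for pioglitazone without and with gentamicin at 6 h and between -0.06 and 0.07 in the other comparisons.

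Gentamicin added to pioglitazone gave medians of -0.06 at 6 h and -0.04 at 24 h, and both changed sign on leaving out a library. The 6 h median was 0.06 without PIO replicate 2 and 0.03 without PIO + GM replicate 1, and the 24 h median was 0.01 without PIO replicate 1 or PIO + GM replicate 2. In this comparison the lowest p was that of Cox6a1 at 6 h (log2 -0.33, SE 0.14, edgeR adjusted p = 0.998) and that of Uqcrq, a small subunit of complex III, at 24 h (log2 -0.37, SE 0.22, edgeR adjusted p = 1). The effect of pioglitazone did not pass a test for a difference with and without gentamicin in any member at either time (0 of 82, background 0%, with 2 members at 6 h and 0 at 24 h at an unadjusted p under 0.05, where 1.8% and 1.21% of all tested genes were, and 0 by DESeq2). The lowest p in these tests was that of Cox6b2 at 6 h (log2 difference 1.34, SE 0.49, edgeR adjusted p = 1). Among the other pathway lists, 2 genes of fuel choice passed under pioglitazone. Cpt1a, the carnitine transferase that admits fatty acids to mitochondria, rose in all 4 comparisons with pioglitazone, with log2 fold changes of 0.88 and 1.12 against CTRL and 0.77 and 1.06 against GM at 6 and 24 h (SE 0.12 each, edgeR adjusted p between 0.00017 and 0.00721). Pdk4, a kinase that spares pyruvate when fat is burned, rose against GM at 6 h (log2 1.56, SE 0.32, edgeR adjusted p = 0.033). The 6 h calls of both genes were lost in a fit on the 6 h libraries only. There 0 of 15769 genes passed in PIO against CTRL or in PIO + GM against GM.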

How the data were processed

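The authors mapped single reads of stranded total RNA libraries to mm10 with RNA-STAR, counted with qCount of QuasR the reads starting in any RefSeq exon of a gene, and deposited these counts without normalization. The deposited table gives 1 other column of no sample, the gene length in bases. Use of strand and of reads with several matches is not given in the sources used here. Entrez identifiers were matched to symbols and locations in RefSeq's table for GRCm38.p6 (24374 of 24454 matched).

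Counts were analysed with edgeR 4.0.16 in R 4.3.3 (TMM factors 0.961 to 1.038, filterByExpr, quasi-likelihood test, 1 mean per group, all 24 libraries, 16317 genes tested). Benjamini-Hochberg adjustment ran over every gene tested, and the threshold was 0.05. In the time comparisons the mean of the 4 treatments was a contrast of the same model. CPM use the TMM library sizes, and 3 counts correspond to 0.193 to 0.416 CPM, which covers counting error only. Alternatives were other library scalings and filters, DESeq2 1.42.0, only the libraries compared, a replicate block, each library left out in turn, and offsets from a lowess curve, fitted per library, of log CPM less its mean per gene on transcript GC content. Tables were made in Python with pandas and scipy.

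The members, the gene lists and the tests were chosen with earlier results of these data known. Genes named are all members called in a comparison or, beyond 12, the 6 with the largest change in each direction, core subunits, paralogue sets, the lowest p where none was called, the highest and lowest level of a complex, and up to 6 called genes of each other list. Further members and marker genes were named after their values were seen. GC content and shared 76-base windows came from GENCODE vM21 transcripts closest to the deposited length, without the genome. On simulated data for PIO against CTRL at 6 h (16317 genes, 200 changed), 86.5% of changes of log2 2 and 53.9% of log2 1 were recovered, and 9 of 153 called genes had not been changed. Values of 1 member are not reported here, although it is in the counts. Replicate numbers in the labels were not used as pairs.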

Additional observations from a re-analysis of the deposited data

How the results depend on the processing

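Of the counts of called members, those in the drug comparisons and interactions stayed at 0 except for PIO + GM against GM at 6 h, which gave 0 to 16 on leaving out a library, with 16 without PIO + GM replicate 1. Leaving out a library gave 6 to 12 called members for 24 h against 6 h in CTRL and 14 to 28 in PIO + GM. With only the libraries of the comparison, 8 members were called in PIO and 13 in PIO + GM in place of 18 and 22, with fewer libraries behind the estimate of the spread. The replicate numbers do not pair the libraries by the labels, and same-numbered libraries deviated together in 9 of 18 pairs at 6 h and 15 of 18 at 24 h (correlation above 0.1), with 8 of 12 libraries at each time closest to their own number. With the replicate number as a block, 1 member was called in PIO + GM against GM at 6 h, Ndufa4l2 (lower, edgeR adjusted p = 0.0486), and 44 in place of 43 for the mean time effect. Among named members called higher, Cox8a, Ndufa13, Atp5d and Ndufb10 turned negative after removal of a GC trend, with -0.11, -0.12, -0.05 and -0.02. Cox8a was at -0.10 with the block as well, and its small rise was no longer called under 15 of 32 alternatives. The causes were not tested. The other totals of called members, both directions together, stayed within 1.5 times the value given (13 to 27 in PIO on leaving out a library), though the counts of members that rose or fell within a treatment moved by more, and all medians within the spread of library medians (0.153). Levels of Cox6a2, Cox8b, Cox7b2, Cox8c and Atp5g2 rest on at most 21 counts in a library.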

Other observations

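Ndufs5-ps, a transcribed pseudogene of the accessory subunit gene Ndufs5, had more counts than its parent. It had 310 to 635 counts per library and a mean of 35.3 CPM (35.9 RPKM), while Ndufs5 had 74 to 151 counts, 7.94 CPM and 15.6 RPKM. The deposited length of Ndufs5-ps, 984 bases, is greater than the span of its location, chr16:42955580-42956079, so its RPKM is uncertain. Of the 76-base windows of Ndufs5, 32.0% also occur in the transcript of the gene model BC002163, so reads of the parent and of copies cannot always be told apart. Neither passed the time test (log2 -0.01, SE 0.09, for Ndufs5 and 0.00, SE 0.08, for Ndufs5-ps).

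After removal of group means, members varied together across the 24 libraries, with a median Pearson r of 0.39 over 3321 pairs, 0.44 over 978 pairs within a complex and 0.38 over 2343 pairs between complexes. By complex the median was 0.48 in I, 0.54 in III, 0.49 in V, 0.24 over the 6 pairs of II and 0.08 in IV. Pairs of members that were both below the median GC content had a median r of 0.65, against 0.28 for pairs both at or above it and 0.31 for mixed pairs. The pairs share the same libraries and depth, so these values are descriptions. No value for pairs of other genes is given, so whether members vary together more than other genes is not known. Ndufa2, an accessory subunit of complex I, followed the other members most closely (median r 0.74), while Atp5g2, Atp5d and Uqcrc1 had medians of -0.21, -0.20 and -0.20.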
